A study of Homo sapiens with 9 samples.

Results

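Histone genes were followed in RNA-seq of HepG2 cells deprived of glutamine (Gln). Of the 22587 genes of the expression table, 69 carried a histone gene symbol, 3 of these were non-coding transcripts named after a neighbouring histone gene and were left out, and 66 histone genes remained. They were split by symbol into 57 replication-dependent genes, called clustered genes here because all but H2BC12L, on chromosome 21, lie on chromosomes 1 and 6, which hold the histone gene clusters, and 9 genes of polyadenylated variants, 8 of which are described, so that counts of histone genes below cover 65 genes. The clustered genes comprised 6 of H1, 15 of H2A, 15 of H2B, 10 of H3 and 11 of H4. The variants described were H1-8 and H1-10 of the linker histone, H2AX, H2AZ1, H2AZ2 and H2AJ of H2A, and H3-3A and H3-3B, both of which encode H3.3.

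HepG2 is a human hepatocellular carcinoma line. It was grown with Gln added, or kept without Gln for 12 h or 24 h, and 3 libraries were sequenced in each of the 3 groups. The labels name no allele or transgene in any group. GlutaMAX, a stable dipeptide that supplies Gln, stands in the labels as the supplement of the Gln-added libraries, while the treatment description places it in the Gln-free medium, so the composition of both media rests on conflicting text. Nothing in the labels says that the 3 libraries of a group came from separate cultures, and p-values therefore measure the spread between these libraries only. The libraries held 29621270 to 36261546 fragments on genes. Replicate 1 of the 24 h group stood apart from the other 24 h libraries, with a chi-square per degree of freedom over genes of 14.4 and 9.62 against them, where the other pairs of replicates gave 2.88 to 8.34. To a lesser degree so did replicate 3 of the 12 h group, with 7.84 and 8.34 against the other 12 h libraries, which gave 3.38 between them. All 9 liver tumor cell markers were expressed in every group, with summed FPKM of 7550 to 7650 with Gln added, 6614 to 6684 at 12 h and 6388 to 6721 at 24 h. Of 7 fibroblast markers in the table none reached a mean of 0.5 FPKM. Their summed level was 0.116 to 0.181 FPKM in Gln-added libraries, 0.321 to 0.518 at 12 h and 0.608 to 0.78 at 24 h, nearly all of it PDGFRB, and COL1A1, COL1A2, DCN and THY1 were at 0 with Gln added. Of 6 blood and endothelial markers in the table, 0.5 FPKM was reached by 3, and the summed level of 526.3 to 787.5 FPKM came almost wholly from LYZ, while CDH5 and VWF were near 0. FPKM, used throughout, are fragments scaled to transcript length and library total.

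Each nucleosome wraps DNA around an octamer of H2A, H2B, H3 and H4, and H1 binds the linker DNA between nucleosomes. The clustered genes supply most of this protein in S phase. Their mRNAs have no introns and normally no poly(A) tail: they end just after a conserved stem-loop that the stem-loop binding protein SLBP recognises, and they are destroyed when DNA synthesis stops. Variant genes are transcribed outside S phase as well, many of them with introns and most with a poly(A) tail, and their products replace the canonical histones at particular places. H2A.Z marks promoters, H3.3 is laid down where transcription or repair displaces nucleosomes, and H2A.X is the H2A that is phosphorylated around DNA breaks.

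The stem-loop was sought because it decides how an mRNA ends, and so how it can be captured. With the histone stem-loop pattern of 16 bases searched in the 300 bases after the stop codon (GRCh38 genome, GENCODE release 44), 57 of the 65 genes held a match, against 73 of all 19970 protein-coding genes (0.366%). It was found in 56 of the 57 clustered genes, the exception being H2BC12L, and in 1 of the 8 variants, H2AX, which can end its mRNA either way. In the clustered genes it began 23 to 68 bases after the stop codon, with a median of 36. Representatives of the families are shown 5′ to 3′ as DNA with the stem-loop in capitals, so that the paired arms and the loop between them can be compared.
H1-2, chr6:26055739-26055764, minus strand: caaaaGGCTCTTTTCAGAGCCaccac
H2AC20, chr1:149887386-149887411, plus strand: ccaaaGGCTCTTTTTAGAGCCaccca
H2BC12, chr6:27146361-27146386, minus strand: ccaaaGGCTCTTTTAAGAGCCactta
H2BC4, chr6:26123467-26123492, minus strand: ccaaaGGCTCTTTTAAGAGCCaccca
H3C10, chr6:27810511-27810536, plus strand: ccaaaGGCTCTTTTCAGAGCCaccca
H4C8, chr6:26285126-26285151, minus strand: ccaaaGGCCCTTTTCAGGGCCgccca
H2AX, chr11:119094893-119094918, minus strand: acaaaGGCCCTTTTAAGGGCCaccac
The core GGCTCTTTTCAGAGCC was shared by 31 clustered genes and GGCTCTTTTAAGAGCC by 9. All 11 H4 genes carried another stem, 8 of them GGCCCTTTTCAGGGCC and 3 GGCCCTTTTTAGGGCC. The core of H2AX, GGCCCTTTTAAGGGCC, combined the stem of the H4 genes with the loop of H2BC12 and H2BC4.

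In FPKM, a level per transcript length, the variants described stood far above the clustered genes. Among 7 of them the lowest mean over the 9 libraries was 11.8 FPKM, in H2AJ, whereas the highest clustered gene, H2BC12, had a mean of 7.37 FPKM and the median clustered gene 0.125 FPKM. The other one, H1-8, an oocyte linker histone, was represented by 1 fragment in 1 library. The 57 clustered genes together received 7517 fragments in the 9 libraries, and 3 genes, H2BC12, H1-2 and H2AC6, took 55.6% of them. In 27 clustered genes no library held more than 3 fragments, and in 39 none held more than 10. A mean of at least 0.5 FPKM was required for the test, which 19 of the 65 genes passed: 12 of the 57 clustered genes and 7 of the 8 variants. No H4 gene passed. Whether poly(A) RNA was selected is not stated, and what the low clustered levels owe to library preparation was not tested.

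Summed over all 57 members, clustered genes received 26.2, 27.1 and 25.6 of every 1000000 fragments in Gln-added libraries, 20.02, 23.7 and 21.7 at 12 h, and 24.1, 23.0 and 24.7 at 24 h. All 6 deprived libraries lay below the 3 with Gln added. These sums lean on few genes and are given without a test. In RNA from whole cultures, fewer cells in S phase and less mRNA in each cell cannot be told apart.

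After 12 h of Gln deprivation, 3 of the 19 histone genes tested were higher (29.1% of all 11880 genes tested were) and 7 were lower (31.0% of all genes). At 24 h, 2 were higher (33.0% of all genes) and 6 were lower (31.7% of all genes). In the table as a whole most genes passed the test. By class, 2 clustered genes were higher and 3 lower at 12 h, and 2 and 2 at 24 h, while 1 variant was higher and 4 lower at 12 h, and 0 and 4 at 24 h, where 1 variant was higher at an unadjusted limma p under 0.05 and 0 by limma voom. The median log2 fold change of the 12 clustered genes tested was -0.22 at 12 h and -0.08 at 24 h, that of the 7 variants -0.15 and -0.37, and that of all genes tested -0.02 and 0.01. The test was limma on log2(FPKM + 0.1) with Benjamini-Hochberg adjustment over all genes tested, and fold changes below are on that scale, which understates those of genes near 0.1 FPKM. Leaving out 12 h replicate 1 reduced the 12 h falls from 7 to 4, and leaving out 24 h replicate 1 raised the 24 h falls from 6 to 9.

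**Figure D1:**
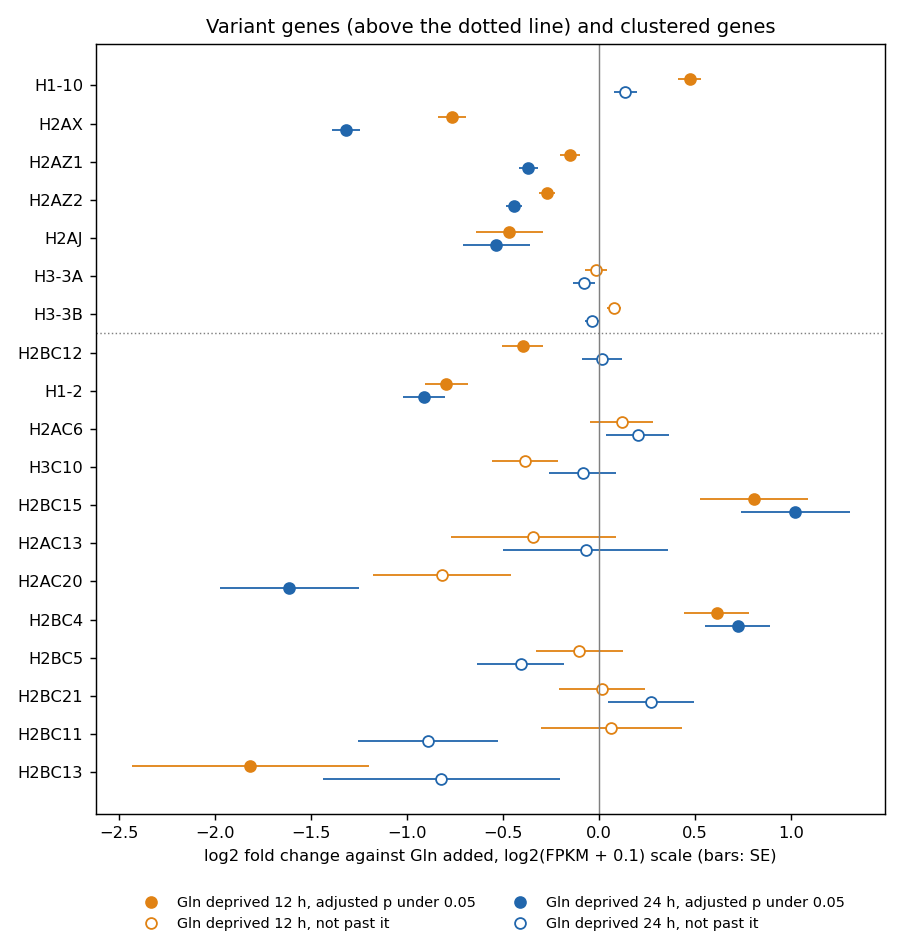
Log2 fold change against Gln added, on the log2(FPKM + 0.1) scale, of the 19 histone genes tested at 12 h (orange) and 24 h (blue), with SE bars. Filled points have a limma adjusted p under 0.05. H2AX, at -0.76 and -1.32, and H1-2, at -0.79 and -0.91, lie to the left at both times.

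Linker histone genes are given first. The variant H1-10 (chr3:129314771-129316286) encodes H1.10, a divergent somatic H1. It measured 57.1, 50.1 and 55.5 FPKM in Gln-added libraries, 79.1, 77.1 and 69.6 FPKM at 12 h, and 62.1, 59.8 and 56.9 FPKM at 24 h. The 12 h libraries stood above both other groups, whereas the 24 h and control libraries overlapped. Its rise of 0.47 at 12 h passed the test (SE 0.0609, limma adjusted p = 6.76e-05), and the value of 0.14 at 24 h did not (SE 0.0609, limma adjusted p = 0.0701), although it did without Gln added replicate 1 (0.0465) or 12 h replicate 3 (0.0416) and with libraries scaled to the same total (0.0188). An antisense gene, H1-10-AS1, overlaps 22.8% of its exons, and without stated strand counting their reads cannot be told apart.

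H1-2 (chr6:26055740-26056470), the only clustered H1 gene that passed the filter, encodes H1.2, a replication-dependent linker histone. Its level was 8.16, 7.67 and 8.85 FPKM in Gln-added libraries, 4.16, 5.70 and 4.37 FPKM at 12 h, and 4.01, 4.24 and 4.75 FPKM at 24 h, with no overlap between controls and deprived libraries. Its log2 fold change was -0.79 (SE 0.111, limma adjusted p = 0.000123) at 12 h and -0.91 (SE 0.111, limma adjusted p = 3.49e-05) at 24 h. These values rest on 90 to 230 fragments per library. The other 5 clustered H1 genes, H1-1 and H1-3 to H1-6, received at most 8 fragments in a library.

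The promoter of H1-2 is printed because clustered H1 genes share an element that is rare in the other families. Capitals mark CCAAT and the H1 AC box, AAACACA, on either strand, in the 250 bases before and 50 after the annotated start (RefSeq, GRCh38.p14).
H1-2 promoter, chr6:26056421-26056720, minus strand: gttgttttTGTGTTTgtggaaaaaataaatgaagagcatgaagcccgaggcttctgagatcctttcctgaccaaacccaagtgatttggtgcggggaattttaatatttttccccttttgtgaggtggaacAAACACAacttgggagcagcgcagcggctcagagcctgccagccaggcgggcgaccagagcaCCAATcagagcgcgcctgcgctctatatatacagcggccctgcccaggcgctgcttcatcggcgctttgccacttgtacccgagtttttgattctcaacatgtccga
The AC box occurred in the promoters of 6 of 6 clustered H1 genes, 1 of 46 of the other clustered genes with a promoter, 0 of 8 variants and 5.76% of all 27305 promoters. A promoter was matched for 60 of the 65 genes.

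All 4 H2A variants were lower at both times. The phosphorylated form of H2A.X served in the study as the mark of DNA breaks. H2AX (chr11:119093874-119095465) had 74.7, 74.3 and 71.0 FPKM in Gln-added libraries, 44.4, 47.0 and 38.5 FPKM at 12 h, and 31.5, 29.7 and 27.2 FPKM at 24 h. The 3 groups were separate and ordered by time without Gln. The log2 fold change was -0.76 (SE 0.0727, limma adjusted p = 7.3e-06) at 12 h and -1.32 (SE 0.0727, limma adjusted p = 8.13e-08) at 24 h, or a 2.49-fold fall at 24 h. These values concern the mRNA and say nothing of phosphorylation.

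Among the variants described the stem-loop shown above was found in H2AX alone. Its promoter held a TATAAA box and 4 CCAAT matches, in capitals here on either strand, as did the promoter of H3-3B.
H2AX promoter, chr11:119095416-119095715, minus strand: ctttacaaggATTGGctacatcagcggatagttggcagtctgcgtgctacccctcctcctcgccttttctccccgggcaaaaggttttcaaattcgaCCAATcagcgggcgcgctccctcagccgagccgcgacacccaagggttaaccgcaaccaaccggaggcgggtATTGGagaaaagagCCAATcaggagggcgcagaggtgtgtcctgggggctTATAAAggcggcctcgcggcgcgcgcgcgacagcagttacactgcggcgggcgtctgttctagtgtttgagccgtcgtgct
CCAAT was present in 43 of 43 clustered H1, H2A, H2B and H3 promoters, 1 of 9 H4 promoters, 7 of 8 variant promoters and 35.7% of all promoters. TATAAA was present in 35 of 52 clustered, 4 of 8 variant and 12% of all promoters.

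H2AZ1 (chr4:99948088-99950275) and H2AZ2 (chr7:44826889-44848126) encode both forms of H2A.Z. H2AZ1 had 324.0, 306.2 and 322.9 FPKM in Gln-added libraries, 287.8, 274.9 and 296.9 FPKM at 12 h, and 239.8, 233.5 and 266.5 FPKM at 24 h. Its groups did not overlap, and it was lower by a log2 change of -0.15 at 12 h (SE 0.0516, limma adjusted p = 0.028) and -0.37 at 24 h (SE 0.0516, limma adjusted p = 0.0001). Over the alternative settings the 12 h value had an adjusted p of up to 0.105. An antisense transcript, H2AZ1-DT, covers 9.82% of its exons.

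H2AZ2 had 37.0, 37.2 and 37.1 FPKM in Gln-added libraries, 31.3, 28.9 and 32.0 FPKM at 12 h, and 27.1, 26.9 and 27.8 FPKM at 24 h. The log2 fold change was -0.27 (SE 0.042, limma adjusted p = 0.000245) at 12 h and -0.44 (SE 0.042, limma adjusted p = 5.24e-06) at 24 h. The coefficients of both H2A.Z genes were closer to 0 than those of H2AX, a difference between genes that was not tested, and the ratio of H2AX to H2AZ1 FPKM was 0.231 ± 0.0115 (SD, n = 3) in Gln-added libraries, 0.152 ± 0.0208 at 12 h and 0.12 ± 0.0158 at 24 h.

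H2AJ (chr12:14774405-14778002), a variant linked to senescent and secretory cells, had 15.7, 13.5 and 14.3 FPKM in Gln-added libraries, 9.75, 11.6 and 10.1 FPKM at 12 h, and 13.5, 7.23 and 10.1 FPKM at 24 h. The highest 24 h library reached the level of the lowest control. The test was passed at 12 h (-0.47, SE 0.174, limma adjusted p = 0.0388) and at 24 h (-0.54, SE 0.174, limma adjusted p = 0.0195), but leaving out Gln added replicate 1 raised both adjusted p, to 0.114 and 0.065.

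H3.3 mRNA did not pass the test at either time in the fit of all 9 libraries. H3-3B (chr17:75776434-75779779) had 164.2, 160.9 and 165.9 FPKM in Gln-added libraries, 171.7, 170.5 and 176.0 FPKM at 12 h, and 165.7, 151.8 and 162.3 FPKM at 24 h. The 12 h libraries lay above the controls, by 0.08 on the log2 scale (SE 0.0375, limma adjusted p = 0.097), and the 24 h value was -0.03 (SE 0.0375, limma adjusted p = 0.443). At 12 h the adjusted p fell to 0.0249 with libraries scaled to the same total and to 0.0398 without 24 h replicate 2. H3-3A (chr1:226061831-226072019) gave -0.01 (SE 0.0582, limma adjusted p = 0.837), or 0.02 with libraries scaled to the same total, and -0.08 (SE 0.0582, limma adjusted p = 0.263), with 109.5, 109.4 and 107.3 FPKM in Gln-added libraries, 113.9, 103.8 and 105.5 FPKM at 12 h, and 113.7, 97.0 and 99.2 FPKM at 24 h. Without 24 h replicate 1, its 24 h value was -0.15 (limma adjusted p = 0.0113). It shares 64.3% of its 100-base stretches with pseudogenes and a related transcript, so its reads may be split. The H3.3 genes supplied 98.3% ± 0.245, 98.8% ± 0.34 and 98.6% ± 0.129 (SD, n = 3) of the summed FPKM of H3.3 and clustered H3 genes in the control, 12 h and 24 h libraries.

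Among the clustered core histone genes the changes went both ways. H2BC12 (chr6:27138293-27146858), an H2B gene of the large cluster, had 7.67, 9.13 and 7.20 FPKM in Gln-added libraries, 5.25, 7.03 and 5.92 FPKM at 12 h, and 8.03, 8.27 and 7.86 FPKM at 24 h. All 12 h libraries were below the other 6. The coefficient was -0.40 (SE 0.106, limma adjusted p = 0.00773) at 12 h and 0.02 (SE 0.106, limma adjusted p = 0.902) at 24 h. It shares 22.5% of its 100-base stretches with H2BC12L and another gene.

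H2AC20 (chr1:149886918-149887411), of the cluster on chromosome 1, had 1.36, 1.04 and 1.31 FPKM in Gln-added libraries, 0.888, 0.893 and 0.337 FPKM at 12 h, and 0.622, 0.244 and 0.232 FPKM at 24 h. In fragments this was 24, 18 and 23, then 13, 16 and 6, then 11, 4 and 4, with all deprived libraries below the controls. H2AC20 shares 12.7% of its 100-base stretches with H2AC18 and H2AC19. Its coefficient was -0.82 (SE 0.36, limma adjusted p = 0.0716) at 12 h and -1.61 (SE 0.36, limma adjusted p = 0.00244) at 24 h. With a library left out the 12 h value ran from -1.02 to -0.42, and without 24 h replicate 1 its adjusted p was 0.0313. The mean of H2AC20 over the 9 libraries, 0.77 FPKM, passed the filter, but its 24 h mean was only 0.366 FPKM, against 1.24 with Gln added and 0.706 at 12 h. In the alternative settings that tested it, the 24 h limma adjusted p reached at most 0.0116. The neighbour on the other strand, H2BC21, shares 265 bases of this promoter. H2BC21 stayed between 34 and 66 fragments per library, and its coefficients were 0.02 and 0.27 (limma adjusted p = 0.957 and 0.313). The promoter is printed from the side of H2AC20, with the CCAAT box, the TATAAA box, the octamer ATTTGCAT and the AC box in capitals on either strand.
H2AC20 promoter, chr1:149886668-149886967, plus strand: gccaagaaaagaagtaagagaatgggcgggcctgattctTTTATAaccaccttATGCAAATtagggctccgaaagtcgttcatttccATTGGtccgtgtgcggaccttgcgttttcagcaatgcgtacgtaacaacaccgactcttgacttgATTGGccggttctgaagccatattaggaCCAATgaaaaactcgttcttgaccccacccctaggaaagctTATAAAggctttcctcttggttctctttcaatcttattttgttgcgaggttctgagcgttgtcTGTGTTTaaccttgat
The octamer was found in 10 of 14 clustered H2A and 11 of 14 clustered H2B promoters, in 1 of the other 24 clustered promoters, in 1 of 8 variant promoters and in 1.8% of all promoters. E2F motifs (TTTCCCGC, TTTGGCGC, TTTCGCGC or TTTGCCGC) were found in 15 of 52 clustered promoters, none of 8 variant promoters and 3.33% of all promoters. These are matches of letters only. The windows are not independent, here or in the motif counts above. Neighbours on opposite strands can share most of a window, so the same motif can count under both genes. The 1 octamer among the other 24 promoters was in H3C4, whose window is the same as that of H2AC7.

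Among genes with a matched promoter there were 9 such divergent pairs of an H2A and an H2B gene, sharing 253 to 293 promoter bases. In 3 of these pairs both genes passed the filter, in 2 pairs the H2B gene alone, and in 4 neither. H2AC12, next to H2BC12 on the other strand, had no matched promoter, so that pairing was not assessed and is not in these counts. Of H2AC6 and H2BC4, which share 255 bases, H2AC6 had 4.80, 4.47 and 4.39 FPKM in Gln-added libraries, 3.84, 5.90 and 5.35 FPKM at 12 h, and 4.31, 5.10 and 6.57 FPKM at 24 h, and these overlapping values gave 0.12 and 0.20 (SE 0.165, limma adjusted p = 0.555 and 0.306). H2BC4 (chr6:26113170-26123926) had 0.531, 0.378 and 0.533 FPKM in Gln-added libraries, 0.682, 0.762 and 0.915 FPKM at 12 h, and 0.898, 0.917 and 0.745 FPKM at 24 h, so the controls were lowest. It rose by 0.61 (SE 0.169, limma adjusted p = 0.00907) at 12 h and 0.72 (SE 0.169, limma adjusted p = 0.00321) at 24 h. Its mean of 0.707 FPKM over the 9 libraries passed the filter through the deprived libraries, at 0.786 and 0.853 FPKM, while the Gln-added mean was 0.481 FPKM. In the alternative settings that tested it, its limma adjusted p reached at most 0.0373 at 12 h and 0.0138 at 24 h. However, the exons counted for H2BC4 span 2426 bases, and 30.9% of its annotated exon bases overlap ENSG00000291336 and HFE on the opposite strand. All 100-base stretches of its main transcript, which is shorter than the counted exons, recur in the same ENSG00000291336. The reads of H2BC4 are therefore uncertain.

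H2BC15 (chr6:27838569-27839110), an H2B gene, received 13, 11 and 8 fragments in Gln-added libraries, 28, 17 and 14 at 12 h, and 19, 23 and 27 at 24 h. In FPKM the groups did not overlap with the controls, at 0.415 to 0.672 against 0.717 to 1.74 and 0.979 to 1.43. The coefficients were 0.81 (SE 0.282, limma adjusted p = 0.0288) and 1.02 (SE 0.282, limma adjusted p = 0.00837), but without 12 h replicate 1 the first was 0.46 (limma adjusted p = 0.097), and limma voom on the fragments gave an adjusted p of 0.0829 at 12 h. Leaving out Gln added replicate 2 or 3 gave 0.0542 and 0.104.

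H2BC13 (chr6:27807479-27807929) received 15, 17 and 10 fragments in Gln-added libraries, 1, 1 and 10 at 12 h, and 11, 12 and 2 at 24 h. It was called lower at 12 h (-1.82, SE 0.617, limma adjusted p = 0.0257) although the third 12 h library held as many fragments as a control, and the call was lost without 12 h replicate 1 (limma adjusted p = 0.0885) or replicate 2 (0.0973), without Gln added replicate 1 (0.0654) or replicate 2 (0.0777), and with no filter on low values (0.0768). Its mean of 0.555 FPKM over the 9 libraries passed the filter through the Gln-added libraries, whose mean was 0.878 FPKM against 0.251 at 12 h and 0.536 at 24 h. Its divergent partner H2AC13, at 7 to 30 fragments per library in all groups, gave -0.34 and -0.07 (limma adjusted p = 0.512 and 0.897), and 58.8% of its 100-base stretches recur in H2AC14. H3C10 (chr6:27810051-27810536), the only clustered H3 gene tested, had 2.48, 3.42 and 3.12 FPKM in Gln-added libraries, 1.81, 3.01 and 2.11 FPKM at 12 h, and 2.93, 3.03 and 2.48 FPKM at 24 h, giving -0.39 and -0.09 (SE 0.172, limma adjusted p = 0.0751 and 0.684). Without 12 h replicate 2 its 12 h value was -0.58 (limma adjusted p = 0.00674), and without Gln added replicate 1 it was -0.51 (limma adjusted p = 0.0356). The other 2 genes tested, H2BC5 and H2BC11, did not pass the test at either time. H2BC11 fell just short at 24 h (-0.89, SE 0.365, limma adjusted p = 0.0526), with 12, 2 and 7 fragments against 12, 11 and 15 with Gln added, after 0.07 at 12 h (limma adjusted p = 0.886). H2BC5 gave -0.10 and -0.41 (limma adjusted p = 0.714 and 0.137).

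The remaining 45 clustered genes were below the filter. In a fit without it, 7 of the 65 histone genes were called at 12 h (31.1% of all 22587 genes were) and 10 at 24 h (34.9% of all genes). This added 3 genes below the filter, chosen here after their values were seen. H3C3 received 13, 13 and 12 fragments in Gln-added libraries, 3, 10 and 4 at 12 h, and 3, 1 and 1 at 24 h, with an unfiltered coefficient of -1.04 at 12 h (SE 0.326, limma adjusted p = 0.0407) and -2.13 at 24 h (SE 0.326, limma adjusted p = 0.000898). H4C12, at 3, 7 and 9 fragments in Gln-added libraries and 3, 0 and 1 at 24 h, had -1.58 (SE 0.483, limma adjusted p = 0.0326) at 24 h, and 91.3% of its 100-base stretches recur in H4C11. H3C6 went the other way, from 32, 23 and 28 fragments to 56, 39 and 63 at 24 h (0.75, SE 0.194, limma adjusted p = 0.0151).

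H3C6 and H2BC4 are among 6 clustered genes whose counted exons exceed 1000 bases, more than a transcript ending at the stem-loop would have, the others being H2BC5, H2BC18, H2BC21 and H4C15. This length does not catch every such gene. H2BC12, with 887 counted bases, falls below it. Its annotation nevertheless runs past the stem-loop at chr6:27146361-27146386 to position 27138293, so its reads need not come from transcripts that end there. Of the 51 clustered genes of up to 1000 bases, 9 were tested, of which 1 was higher and 3 lower at 12 h (29.1% and 31.0% of all genes), and 1 and 2 at 24 h (33.0% and 31.7%). Of the 6 longer genes, 3 were tested: H2BC4 was higher at both times, and H2BC5 and H2BC21 did not pass the test. With a threshold of 700 bases 14 genes were longer, and with 1500 bases 3 were.

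The sums by family, which include the genes below the filter, gave 220, 201 and 234 clustered H1 fragments in Gln-added libraries, 94, 159 and 116 at 12 h, and 115, 106 and 125 at 24 h, nearly all of them from H1-2. Clustered H2B received 430, 462 and 394 fragments, then 315, 414 and 402, then 477, 435 and 442. Clustered H2A received 176, 135 and 139, then 114, 171 and 148, then 130, 118 and 176. Clustered H3 received 98, 112 and 119, then 56, 102 and 99, then 125, 97 and 110. Clustered H4 received 11, 35 and 26, then 14, 12 and 17, then 17, 9 and 10, and the family sums were not tested. These fragments are not scaled to depth, and 12 h replicate 1 had the lowest library total, 29621270.

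Between 12 h and 24 h of deprivation, 1 of the 19 histone genes tested was higher (9.57% of all genes tested were) and 4 were lower (10.5% of all genes). The 4 were variants: H2AX with a log2 difference of -0.55 (SE 0.0727, limma adjusted p = 0.000506), H1-10 with -0.34 (limma adjusted p = 0.00354), H2AZ1 with -0.22 (limma adjusted p = 0.0142) and H2AZ2 with -0.17 (limma adjusted p = 0.0174). H2BC12 was higher, by 0.41 (SE 0.106, limma adjusted p = 0.0204), a call that was lost without 12 h replicate 1, 12 h replicate 3 or 24 h replicate 2. Leaving out 24 h replicate 1 raised the 4 falls to 8. The H2AZ2 call was lost without 12 h replicate 1 (limma adjusted p = 0.0662) and with the groups compared fitted alone (0.0546). H2AX and both H2A.Z genes were thus lower at 24 h than at 12 h in the fit of all libraries, while H1-10 came partly back from its 12 h level.

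Variant histones whose symbols lie outside the rule were read beside these. Of 7 listed, 4 passed the filter. MACROH2A2, which encodes a repressive macroH2A, had 20.1, 21.5 and 20.6 FPKM in Gln-added libraries, 30.2, 30.5 and 30.4 FPKM at 12 h, and 24.4, 23.1 and 23.0 FPKM at 24 h. The groups were separate, and it was higher by 0.55 (SE 0.0398, limma adjusted p = 9.35e-07) and 0.18 (SE 0.0398, limma adjusted p = 0.00229). MACROH2A1 was lower by small steps, -0.11 (SE 0.0366, limma adjusted p = 0.0201) and -0.16 (SE 0.0366, limma adjusted p = 0.00326), from a mean of 14.6 FPKM to 13.5 and 13.1. The 12 h call was lost without 12 h replicate 2 (limma adjusted p = 0.0628), Gln added replicate 1 (0.065) or replicate 2 (0.0561), and under both other scalings (0.0514 and 0.0744). CENPA, the H3 of centromeres, was higher at 12 h (0.18, limma adjusted p = 0.0127) and lower at 24 h (-0.57, limma adjusted p = 3.25e-06).

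The genes that make, process and carry histones were read from 4 lists. In the list of histone transcription and cell cycle input, 3 of 13 genes were higher and 6 lower at 12 h (29.1% and 31.0% of all genes tested were), and 4 and 6 at 24 h (33.0% and 31.7% of all genes), with median log2 fold changes of -0.20 and -0.17. NPAT, the coactivator at histone loci, had 2.48, 2.01 and 2.29 FPKM in Gln-added libraries, 2.02, 1.91 and 2.25 FPKM at 12 h, and 1.85, 2.07 and 2.28 FPKM at 24 h, which overlapped (-0.13 and -0.12, SE 0.106, limma adjusted p = 0.327 and 0.325). CASP8AP2, known as FLASH, a partner of NPAT that is also needed for 3′ processing of histone pre-mRNA, fell from 3.90, 4.01 and 3.99 FPKM to 2.62, 2.52 and 2.88 FPKM at 12 h and 2.86, 2.77 and 2.82 FPKM at 24 h (-0.55 and -0.48, SE 0.0646, limma adjusted p = 3.32e-05 and 7.39e-05). CCNE1, the cyclin whose kinase CDK2 activates NPAT, fell by more at 24 h than at 12 h (-0.51 and -0.84, limma adjusted p = 1.01e-05 and 1.53e-07). E2F2, an activator of S phase genes, was at 5.98, 6.11 and 5.91 FPKM in Gln-added libraries and between 2.603 and 3.141 FPKM in all deprived libraries (-1.04 and -1.07, SE 0.0726, limma adjusted p = 7.08e-07 and 3.9e-07).

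Of 19 genes of histone pre-mRNA processing, 1 was higher and 11 lower at 12 h, and 3 and 10 at 24 h, against the same shares of 29.1% and 31.0%, then 33.0% and 31.7%, of all genes, with medians of -0.19 at both times. SLBP had 47.1, 45.5 and 48.3 FPKM in Gln-added libraries, 37.5, 38.0 and 36.8 FPKM at 12 h, and 33.7, 35.0 and 35.4 FPKM at 24 h. All 6 deprived libraries were lower, by coefficients of -0.33 (SE 0.0363, limma adjusted p = 2.27e-05) and -0.43 (SE 0.0363, limma adjusted p = 1.87e-06). CPSF3, the endonuclease that cuts histone pre-mRNA after the stem-loop, had mean levels of 22.7, 15.7 and 14.8 FPKM (-0.53 and -0.61, limma adjusted p = 5.24e-06 and 1.21e-06). SNRPF, a ring protein that the U7 snRNP shares with spliceosomal snRNPs, had 132, 104 and 84.9 FPKM (-0.35 and -0.64, limma adjusted p = 0.000654 and 6.64e-06).

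Among 11 genes of histone mRNA translation and decay, 3 were higher and 3 lower at 12 h (all genes, 29.1% and 31.0%), and 4 and 3 at 24 h (all genes, 33.0% and 31.7%), with medians of -0.05 and 0.05. LSM4, part of the ring that binds decaying histone mRNA, fell from a mean of 62.1 to 47.7 and 40.6 FPKM (-0.38 and -0.61, limma adjusted p = 6.67e-05 and 1.33e-06). DBR1, the lariat debranching enzyme, whose place in this list is the least sure, fell from 5.45 to 4.02 and 3.49 FPKM (-0.43 and -0.63, limma adjusted p = 0.000189 and 8.76e-06).

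The list of histone chaperones and deposition held 41 genes, of which 40 were tested. At 12 h 12 were higher and 21 lower (29.1% and 31.0% of all genes), and at 24 h 10 were higher and 23 lower (33.0% and 31.7%), with medians of -0.16 and -0.31. ASF1B, the chaperone of new H3 and H4 in dividing cells, had 14.0, 16.6 and 13.9 FPKM in Gln-added libraries, 7.16, 6.76 and 6.49 FPKM at 12 h, and 5.26, 4.74 and 4.67 FPKM at 24 h (-1.11 and -1.58, SE 0.0769, limma adjusted p = 6.61e-07 and 3.07e-08). MCM2, the helicase subunit that passes parental H3 and H4 across the fork, had 50.9, 49.1 and 50.7 FPKM, then 23.3, 23.6 and 22.9 FPKM, then 20.9, 19.2 and 19.5 FPKM (-1.11 and -1.33, SE 0.0406, limma adjusted p = 6.29e-09 and 1.17e-09). Both were separate from the controls in every deprived library. From 12 h to 24 h, 16 of the 40 were lower and 0 higher by limma with adjustment (10.5% and 9.57% of all genes), while 1 was higher at an unadjusted p under 0.05 and 0 by limma voom.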

How the data were processed

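RNA-seq was measured in 9 HepG2 libraries, grouped by the labels. Per the methods, the authors aligned reads to GRCh38 with STAR and tested with DESeq2, and the processing notes name HTSeq and R 3.2.0. One FPKM value per gene in each library was deposited by the authors, and nothing else was used here. The labels and the methods name different library kits. The methods call the libraries strand-specific, but whether strand was used in counting and whether poly(A) RNA was selected are not given in the sources used here. Where fragments are counted whole, FPKM are multiples of a step set by gene length and depth. From these steps library totals, gene lengths and fragments were solved: 100.00% of genes came out whole (tolerance 0.01 fragments) and summed to 99.99% of the totals, and when tested on simulated data, 99.69% of 1961 genes had their true fragments. Replicates differed by more than sampling noise (chi-square per degree of freedom 2.88 to 14.4).

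Values were taken as log2(FPKM + 0.1) where a gene averaged 0.5 FPKM or more, and all groups entered a single limma model (version 3.58.1, R 4.3.3, lmFit and eBayes with a mean trend). The p-values were adjusted by Benjamini-Hochberg across 11880 genes. In simulated data for 12 h against Gln added (11873 genes), 194 of 194 changed genes were called, with 13 false calls. The median absolute log2 fold change of these 194 genes was 0.999. How many genes with much smaller changes would be called was not tested. Genes were called at an adjusted p under 0.05. The members, gene lists and tests were chosen with earlier results of these data known. Of the histone genes 1 variant is not reported here, and counts leave it out. Named in full were the other variants and macroH2A genes, the 8 clustered genes of highest mean FPKM, up to 5 clustered rises and 5 falls at each time, SLBP, NPAT, CASP8AP2, and in each pathway list the 2 largest called changes at 24 h. Motifs and stem-loops were searched in RefSeq promoters (GRCh38.p14) and GENCODE release 44 transcripts, and exon overlap and shared 100-base stretches were taken from the same annotation. Alternatives were 2 other pseudocounts, 2 filters, 2 scalings, the replicate block, fits of 2 groups, omitting each library, eBayes with no trend, limma voom on the fragments, other length thresholds and leaving out testis genes.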

Additional observations from a re-analysis of the deposited data

Results flagged for a closer look

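The effects of 12 h and 24 h of Gln deprivation differed, by the limma contrast of 24 h with 12 h (adjusted p under 0.05), in the following named genes, given as the log2 difference of 24 h minus 12 h. Among histone genes it was -0.55 for H2AX, -0.34 for H1-10, -0.22 for H2AZ1 and -0.17 for H2AZ2, and 0.41 for H2BC12. H2AX and both H2A.Z genes lay farther from the controls at 24 h, while H1-10 and H2BC12 lay nearer to them. Outside the histone gene symbols followed here, MACROH2A2 had -0.37 and lay nearer to the controls at 24 h. Among the pathway genes CCNE1 had -0.33, SNRPF -0.29, LSM4 -0.23, ASF1B -0.47 and MCM2 -0.23, and all of these lay farther from the controls at 24 h. Single outlying libraries were not tested in groups of 3.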

How the results depend on the processing

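Of the 190 alternative values of the 10 summaries (counts of histone genes called, class medians), 177 stayed within 1.5 times the count or 1 SD of the median. With a mean of at least 1 FPKM, the genes called higher were 1 at 12 h and 0 at 24 h, since fewer clustered genes are then tested, and the 12 h clustered median was -0.39. Without a filter, 0 histone genes were higher at 24 h than at 12 h. Leaving out a library gave 4 to 8 genes lower at 12 h, 0 to 2 higher and 3 to 8 lower at 24 h against 12 h, a clustered median of -0.3233 to -0.0728 at 12 h and -0.2471 to -0.0493 at 24 h.

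Single genes changed sign as follows, in contrasts where none passed the test on all libraries. Scaled to the same total, H3-3A was 0.0185 at 12 h and H3-3B 0.0131 at 24 h. With median-ratio scaling, H3-3A was 0.0047 at 12 h, H2BC12 -0.0001 at 24 h and NPAT -0.033 at 24 h against 12 h, where voom gave NPAT -0.001. With a library left out, the ranges crossed 0 at 12 h for H3-3A (-0.0555 to 0.0113), H2AC6 (-0.0054 to 0.2982) and H2AC13 (-0.78 to 0.15), and at 24 h for H3-3B (-0.0603 to 0.0028), H2BC12 (-0.0558 to 0.1141), H3C10 (-0.21 to 0.01) and H2AC13 (-0.51 to 0.42). For 24 h against 12 h they did so for H2AJ (-0.29 to 0.16), H1-2 (-0.2029 to 0.0199), H2AC6 (-0.10 to 0.22), H2BC15 (-0.0216 to 0.5656), H2AC13 (-0.0001 to 0.53), NPAT (-0.0688 to 0.0758) and E2F2 (-0.0613 to 0.0367). The cause was not tested. In 39 single-gene values a call was lost and in 29 one was gained, and the threshold of 700 or 1500 bases left 14 or 3 long clustered genes. Leaving out testis genes changed no count of clustered genes called. Such counts cover only genes above the filter, and the testis gene H1-6 was below it, so they could not change through H1-6.

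No pairing of the libraries by the replicate numbers of the labels was shown. Correlations of same-numbered deviations ran from -0.136 to 0.283, and those of different-numbered ones from -0.467 to 0.296. With 3 libraries in each group these values cannot exclude pairing. With the replicate block 3 histone genes were higher and 9 lower at 12 h, 3 and 7 at 24 h, and 1 and 5 at 24 h against 12 h. Calls gained with it included H1-10 at 24 h (adjusted p = 0.0419), and at 12 h H2AC20 (0.0392) and H3C10 (0.0274). The clustered genes are limited by depth, with 39 of 57 at no more than 10 fragments in any library.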
